A study of Mus musculus with 721 samples.

Results

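The genes described here are 8 RNA-binding regulators: the let-7 blocking proteins Lin28a and Lin28b, the ubiquitin ligase Trim71, the mRNA-binding proteins Igf2bp1, L1td1 and Msi2, and the splicing regulators Ptbp2 and Esrp1. They were chosen by name, as the rows of the deposited count table that carry these symbols. All 8 of the 8 had a row among the 24483 gene rows, and all 8 were among the 17029 genes that passed the filter on low counts. The study sequenced the polyadenylated RNA of picked cells of C57Bl/6Babr mouse embryos, with no treatment, on embryonic days 3.5, 4.5, 5.5 and 6.5 (E3.5 to E6.5), which cover the time from the blastocyst to the start of gastrulation. The count table holds 721 cells. Each cell was placed in a class by its stage and by clustering, and the counts of at least 3 cells of a class in 1 embryo were summed, so that the embryo is the replicate. Levels are given as CPM, the counts of such a sum scaled to its total after TMM normalization, which makes them shares of the sum's RNA and not amounts per cell.

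Lin28a and Lin28b bind the precursors of the let-7 microRNAs and stop them from maturing, while let-7 in turn binds the 3′ untranslated regions (UTRs) of Lin28, Trim71 and Igf2bp1 mRNAs. Trim71 is the vertebrate relative of the worm gene lin-41, a classical let-7 target, and represses mRNAs and marks proteins for destruction. L1td1, derived from a LINE-1 retrotransposon, is an RNA-binding protein of pluripotent cells, Msi2 is a Musashi protein that controls translation, and Ptbp2 and Esrp1 steer alternative splicing in neural and epithelial programmes.

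The groups were as follows. At E3.5 all 99 cells of 10 embryos were taken as inner cell mass (ICM), and 9 of these cells carried no embryo number and were kept as 1 embryo. E4.5 gave 27 epiblast-like and 78 primitive endoderm (PrE)-like cells from the same 5 embryos. E5.5 gave 257 epiblast-like cells from 8 embryos, and 5 endoderm-like cells of embryo 7 made the only E5.5 endoderm-like sum. E6.5 embryos fell into 2 sets by label. Embryos on plates P1 to P3 gave 91 epiblast-like cells in 8 sums and 33 endoderm-like cells in 7 sums. Embryos without a plate name, some of them titled E6.75, gave 81 epiblast-like cells in 4 sums, 9 endoderm-like cells in 2 sums and 24 primitive streak-like cells in 1 sum. The 51 sums held between 1476466 and 49484352 counts. The reads carry no molecular identifiers. A limit set where no count was seen covers counting error only and takes cells as independent. Values after ± are the SE of the fit over embryo sums for log2 changes, and the SD over embryos for shares of cells.

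The classes were checked against marker lists. The 19 endoderm markers with a row summed to 9806 to 17209 CPM in E4.5 PrE-like sums and to 1473 to 4040 CPM in E4.5 epiblast-like sums, and to 577 to 3667 CPM in epiblast-like and 6068 to 20430 CPM in endoderm-like sums on the E6.5 plates. Sox17, which defines the endoderm, was at 0 in at least 1 of the 7 E6.5 endoderm-like sums on plates (highest 260.5 CPM). Epiblast markers reached 3680 CPM in 1 of those sums, inside the range of 3065 to 3963 CPM of the epiblast-like sums. When cells were classed by marker scores instead of clusters, 15 of 92 epiblast-like cells on the E6.5 plates became endoderm-like and 5 of 35 endoderm-like cells became epiblast-like. The calls between these lineages over all genes then went from 2116 to 1049, while the number of the 8 genes called did not change in any of the 9 comparisons. The 2 E6.5 sets differed in depth of detection: in epiblast-like cells, an embryo's median count of detected genes was 5422 to 6225 on plates and 7910 to 9314 without a plate name. Its part in the results below was not tested.

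The sequence that ties several of these genes together is the let-7 seed. The 5p sequences of let-7a to let-7g, let-7i and miR-98 were kept from the RefSeq table (build GRCm38.p6), and other entries were left out. Those kept share the seed GAGGUAG at bases 2 to 8, in capitals in these 2 mature sequences, which differ after the seed:
mmu-let-7a-5p: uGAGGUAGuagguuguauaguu
mmu-let-7g-5p: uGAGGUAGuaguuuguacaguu

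The letters CTACCTC, which pair with that seed, were searched on the transcript strand of the longest annotated 3′ UTR of each gene (GENCODE annotation of GRCm38). Of 21037 protein-coding genes with a 3′ UTR, 9.0% held at least 1 match. Lin28a held 2 matches in 2775 bases, Lin28b 4 in 4445, Trim71 4 in 5512 and Igf2bp1 4 in 6337. Among genes whose 3′ UTR is within 10% of the same length, 13.6%, 22.7%, 29.0% and 36.1% held any match, in the same order. The 3′ UTRs of Msi2 (5310 bases), Ptbp2 (1586), L1td1 (364) and Esrp1 (2059) held none. The sites below are shown because they mark the 4 genes that let-7 could bind by these letters, with the match in capitals and 11 bases of the UTR on each side. All lie on the minus strand of GRCm38, at chr4:134005179-134005207 and chr4:134004541-134004569 for Lin28a, chr10:45381012-45381040 for Lin28b, chr9:114512462-114512490 and chr9:114512366-114512394 for Trim71, and chr11:95961768-95961796 for Igf2bp1.
Lin28a site 1: agcctgttgaaCTACCTCatttttgccga
Lin28a site 2: tcgccacaaacCTACCTCactgtgttgaa
Lin28b site 1: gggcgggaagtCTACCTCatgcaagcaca
Trim71 site 1: ttgcctaagtcCTACCTCagcttaaattt
Trim71 site 2: ataatttctatCTACCTCaactctttgca
Igf2bp1 site 1: tgcgaagtaaaCTACCTCaaggtgtgaag

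Nearest to a stop codon was the first Lin28b match, 36 bases into the UTR. The 4 Trim71 matches formed 2 close pairs, at bases 166 and 262 and at bases 3591 and 3617. The row of Trim71 in the count table starts at base 114511275 of chromosome 9, whereas the annotated gene runs from 114507133 to 114564369, so reads over the second pair of sites were outside the model that was counted. A match is a description of letters and no measure of binding, and let-7 itself is not measured by these libraries.

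**Figure D1:**
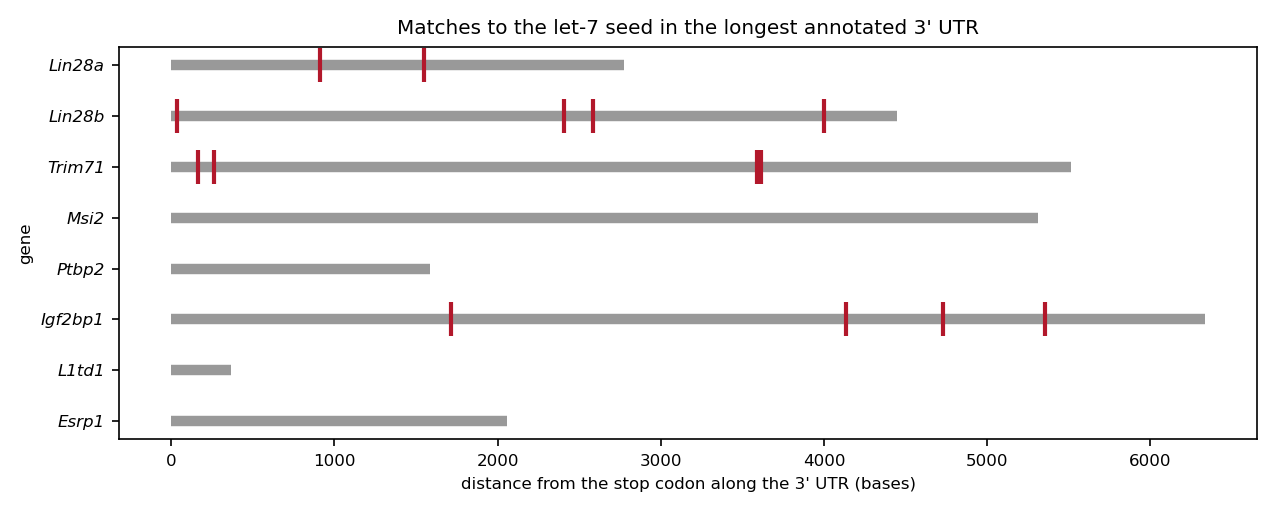
Each grey bar is the longest annotated 3′ UTR of a gene, drawn to scale in bases from the stop codon, and each red tick is a match to the let-7 seed. Lin28a holds 2 matches, Lin28b, Trim71 and Igf2bp1 hold 4 each, and the other 4 genes hold none.

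Between E3.5 and E4.5, 4 of the 8 genes rose in the epiblast and 3 rose in the PrE. Lin28a, Trim71 and Msi2 rose in both lineages, and L1td1 rose in the epiblast-like cells. Of all genes tested, 12.2% were called higher in E4.5 epiblast-like cells and 12.5% in PrE-like cells than in the E3.5 ICM, where the call required an adjusted p no larger than 0.05 together with a log2 fold change above 1. The median log2 change of the 8 genes was 1.59 in the epiblast and -0.06 in the PrE, beside 0.00 and 0.13 over all genes. Both comparisons share the E3.5 sums. The 12 trophoblast markers summed to 394 to 1871 CPM in the E3.5 sums. They summed to 276 to 464 CPM in E4.5 epiblast-like and to 133 to 243 CPM in PrE-like sums. Cdx2 reached 114.6 CPM in an E3.5 sum (median 0 CPM) and was at 0 in every E4.5 sum. The part of these markers in the changes from E3.5 was not tested.

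Lin28a is the family member known for its place among pluripotency factors. Its level in the E3.5 sums was 0 at the lowest, 7.48 CPM at the median and 27.7 CPM at the highest, with 2 of 10 embryos at 0. In the E4.5 epiblast it was 239.6, 154.8, 185.8, 119.9 and 137.9 CPM in embryos 1 to 5, and in the PrE of the same embryos 173.5, 129.9, 214.1, 99.3 and 218.0 CPM. No E4.5 sum of either lineage came down to the E3.5 range. Lin28a rose by 3.88 ± 0.48 on the log2 scale (log2 fold change ± SE, 14.7-fold) in the epiblast, with an adjusted p of 2.53e-08, and equally by 3.88 ± 0.48 in the PrE, with an adjusted p of 1.61e-08. After cells were thinned to 200000 counts each, Lin28a had a count in 28.1% ± 19.05 of E3.5 cells (mean ± SD over 10 embryos) and in 97.1% ± 6.39 of E4.5 epiblast-like cells (5 embryos). Its exons share 234 bases with those of Gm13061 on the opposite strand, and the counting is not stated to use strand.

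Trim71 was present at E3.5 in all 10 embryos, from 4.40 to 45.03 CPM with a median of 24.5 CPM. The E4.5 epiblast-like sums of embryos 1 to 5 held 65.3, 176.7, 90.7, 66.9 and 243.2 CPM, and the PrE-like sums 65.7, 75.6, 101.8, 97.5 and 145.6 CPM. These ranges lie wholly above that of E3.5. The rise was 2.47 ± 0.39 on the log2 scale (adjusted p = 6.28e-06) in the epiblast and 2.07 ± 0.39 (adjusted p = 0.000116) in the PrE.

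Msi2 had no count in any of the 10 E3.5 sums, which together hold 58421534 counts, so that 3 counts over the group, the floor used here, come to 0.0480 CPM. In cells thinned to 200000 counts it was seen in 0 of 98 E3.5 cells. If cells of an embryo are taken as independent, this allows up to 3.06% of cells with a count. By E4.5 the epiblast-like sums of embryos 1 to 5 held 25.1, 9.33, 35.7, 34.9 and 81.7 CPM. Against the floor this is at least 778-fold higher for the mean of the 5 sums (edgeR adjusted p = 1.56e-15). The PrE-like sums held 1.097, 3.01, 1.89, 3.67 and 16.6 CPM. For their mean, which embryo 5 raised, this is at least 109-fold higher than the floor (edgeR adjusted p = 1.21e-11). Of the genes tested, 3044 (17.9%) were at 0 in every E3.5 sum, and 66 of these were above 0 in every E4.5 epiblast-like sum, as Msi2 was.

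L1td1 ranged at E3.5 from 35.7 to 188.9 CPM with a median of 129.6 CPM. In the E4.5 epiblast it was 315.6, 415.0, 406.0, 344.7 and 386.7 CPM in embryos 1 to 5, all above the highest E3.5 embryo. The rise was 1.55 ± 0.28 on the log2 scale (adjusted p = 6.05e-05). In the PrE it was 140.4, 76.7, 78.8, 72.6 and 85.8 CPM, inside the E3.5 range, and the fitted change was -0.49 ± 0.30 (adjusted p = 0.277).

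The other 4 genes did not pass the test at this step. Igf2bp1 was the highest of the 8 in CPM at E3.5, from 158.1 to 515.2 with a median of 271.4 CPM, and its E4.5 medians were 374.5 CPM in the epiblast and 412.6 CPM in the PrE. Esrp1 was between 0 and 56.1 CPM at E3.5 (median 4.43) and between 10.98 and 56.8 CPM (median 15.7) in the E4.5 epiblast, with a fitted log2 change of 1.63 ± 0.80 and an adjusted p of 0.148. Ptbp2 and Lin28b stayed low: the E4.5 epiblast medians were 4.95 CPM for Ptbp2 and 0 CPM for Lin28b, which had counts in 2 of 5 epiblast-like sums. The E3.5 levels of Ptbp2 were uneven, with 113.2 CPM in embryo 5, 23.5 CPM in embryo 4 and at most 9.66 CPM in each of the others. At this depth the intervals are wide, from -2.33 to 1.91 on the log2 scale for Lin28b and from -2.85 to 0.86 for Ptbp2 in the epiblast (95%). In the PrE the fitted change of Lin28b was -1.91 ± 1.096 (adjusted p = 0.239), and without embryo 4, the highest of the PrE-like sums, it was -4.88 and would be called (adjusted p = 0.0313). E3.5 and E4.5 embryos share no plate name, so stage and plate cannot be told apart here.

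**Figure D2:**
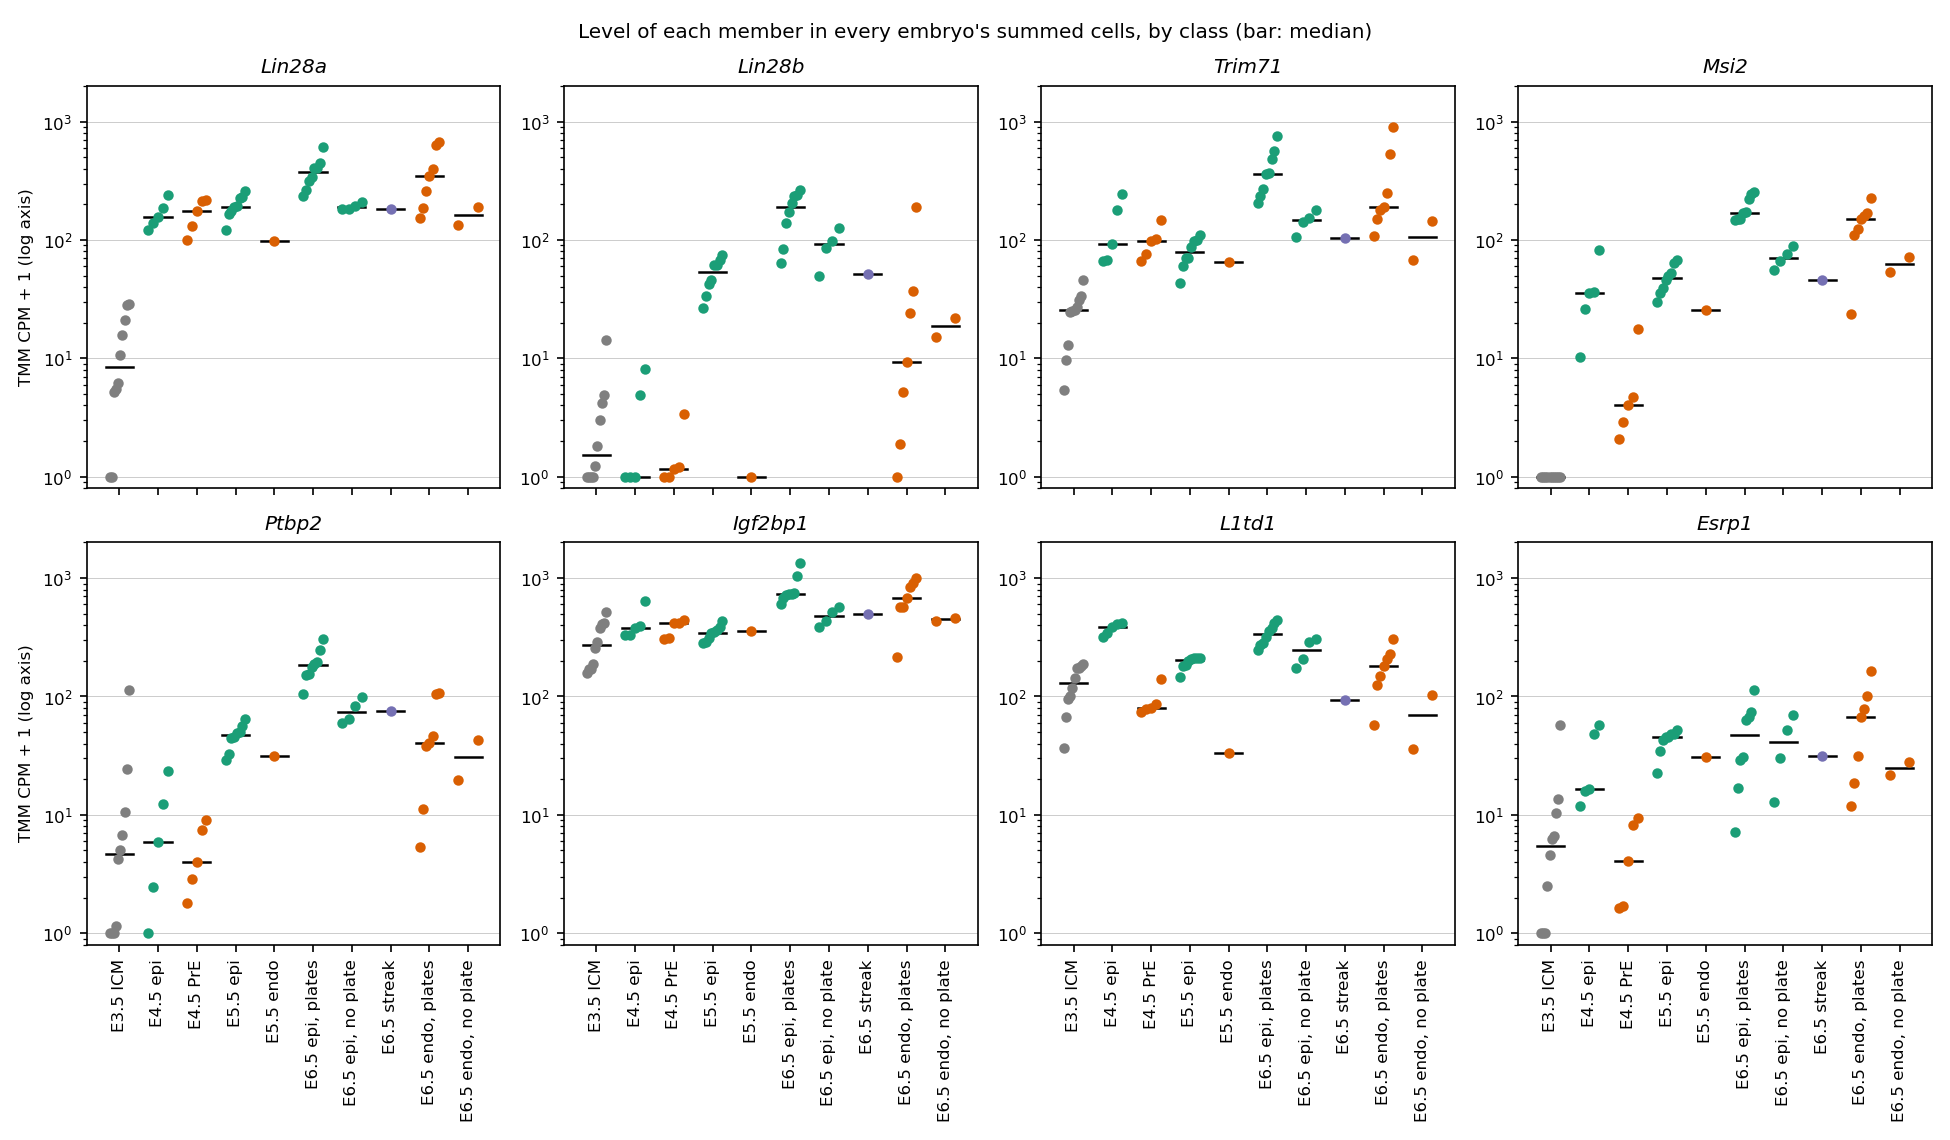
Points are the TMM CPM of each gene in the summed cells of 1 embryo, plus 1, on a log axis, by class, with the median as a bar. Grey marks the ICM, green the epiblast-like, orange the PrE-like and endoderm-like and purple the streak-like sums. Lin28a and Msi2 step up between E3.5 and E4.5, while Lin28b stays near 0 until E5.5.

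Within the E4.5 embryos, where the lineages can be compared in the same animals, Msi2 and L1td1 were lower in the PrE than in the epiblast. These were 2 of the 8 genes, called here with a log2 limit of 2 and the same adjusted p, beside 1.44% of all genes called lower. Lin28a, Trim71 and Igf2bp1 differed little, with 95% intervals of the log2 difference from -1.12 to 1.11, from -1.34 to 0.54 and from -0.72 to 0.46. The median log2 difference of the 8 genes was -1.33, beside 0.03 over all genes.

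L1td1 was 4.11-fold lower in the PrE, with a log2 difference of -2.04 ± 0.35 and an adjusted p of 0.000145. The highest PrE-like sum, 140.4 CPM in embryo 1, lay below the lowest epiblast-like sum of 315.6 CPM. Its estimate stands close to the limit: with embryo 2, 3 or 4 left out it was -1.969, -1.960 or -1.997 and just missed the limit of 2, with adjusted p-values of at most 0.00261.

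Msi2 was 7.02-fold lower in the PrE (log2 difference -2.81 ± 0.58, adjusted p = 0.00205). The PrE-like sum was lower in 5 of 5 embryos, by 1.37 to 3.67 in log2(CPM + 1), although the lineages' ranges overlap because PrE-like embryo 5 (16.6 CPM) lay above epiblast-like embryo 2 (9.33 CPM). Msi2 was found in 84.3% ± 22.8 of epiblast-like and 24.5% ± 2.26 of PrE-like cells thinned to 200000 counts (5 embryos each). In the cells labelled single alone the difference was -1.94 and the adjusted p 0.0532.

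Esrp1, a splicing regulator of epithelial cells, was 56.8, 10.98, 15.7, 14.9 and 47.4 CPM in the epiblast and 7.21, 0.64, 0.69, 3.10 and 8.38 CPM in the PrE of embryos 1 to 5. The ranges do not overlap, and PrE was lower in 5 of 5 embryos. The fitted difference was -2.85 ± 1.02 with an adjusted p of 0.0891, which misses the threshold, and with the embryo as a replicate block it was -3.22 with an adjusted p of 0.0168. Within plate P1 (2 embryos) and plate P2 (3 embryos), the mean difference of log2(CPM + 1) was -2.84 and -2.54 for Esrp1, -2.50 and -2.95 for Msi2, and -1.79 and -2.25 for L1td1.

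From E4.5 to E5.5, Lin28b was the gene that rose in the epiblast, 1 of 8 beside 2.25% of all genes called higher. Lin28b is the second mammalian Lin28 gene, longer than Lin28a and known to act in the nucleus as well. The level was 0, 7.14, 0, 3.93 and 0 CPM in the E4.5 epiblast of embryos 1 to 5, and from 25.7 to 74.0 CPM with a median of 52.6 CPM in the 8 embryos at E5.5, so that the stages do not overlap. The fitted rise was 4.59 ± 1.29 on the log2 scale with an adjusted p of 0.0256. It missed the threshold without embryo 1, 3 or 5 of E4.5, each of which is at 0, with an adjusted p of up to 0.0721 and a rise of at least 4.23. The share of cells with a Lin28b count went from 7.86% ± 11.4 (5 embryos) to 66.5% ± 12.7 (8 embryos) in thinned cells.

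Ptbp2, the neural relative of the general splicing repressor Ptbp1, showed a like separation. It was 1.48, 22.5, 0, 11.3 and 4.95 CPM in E4.5 epiblast-like embryos 1 to 5 and 28.3 to 63.2 CPM (median 46.1) at E5.5, again with no overlap. The fitted change of 2.52 ± 1.02 had an adjusted p of 0.136. Cells with a count made up 20.2% ± 15.6 and 82.8% ± 8.09 in the same order.

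L1td1 stood at 146.1 to 210.6 CPM at E5.5 (median 202.1), below every E4.5 epiblast-like sum. The fitted change was -0.95 ± 0.30 with an adjusted p of 0.0494, under the limit of 1 on the log2 scale. Lin28a (120.7 to 260.1 CPM, median 189.6), Trim71 (42.4 to 110.2 CPM, median 77.8), Msi2 (29.1 to 67.0 CPM, median 46.9), Igf2bp1 (283.7 to 434.9 CPM, median 345.6) and Esrp1 (21.4 to 51.2 CPM, median 44.3) at E5.5 all overlapped their E4.5 epiblast range. Their fitted log2 changes lay between -0.70 and 0.50, with adjusted p-values of at least 0.341. The median over the 8 genes was 0.27, beside 0.28 over all genes. The plate name P1 occurs at both stages, and the labels do not say whether it is 1 plate. Unless it is, stage and plate cannot be told apart at this step.

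One plate label, P11.P6.P10, occurs on both E3.5 and E5.5 cells. It reads as several plate names joined, and the labels do not say whether cells of both stages shared a plate. The 9 unnumbered E3.5 cells gave 27.3 CPM of Lin28a, 13.4 of Lin28b, 4.40 of Trim71, 0 of Msi2, 9.66 of Ptbp2 and 3.56 of Esrp1. The epiblast-like sums of E5.5 embryos 7 and 8 gave 174.9 and 163.6 CPM of Lin28a, 45.1 and 41.6 of Lin28b, 42.4 and 69.5 of Trim71, 52.1 and 34.7 of Msi2, 32.0 and 54.9 of Ptbp2, and 21.4 and 42.1 of Esrp1. All 6 were higher in both E5.5 embryos. L1td1 was 173.1 CPM at E3.5 and 146.1 and 198.4 CPM at E5.5 under this label, on both sides of the E3.5 value. Igf2bp1 was 169.4 CPM and then 310.8 and 346.3 CPM.

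**Figure D3:**
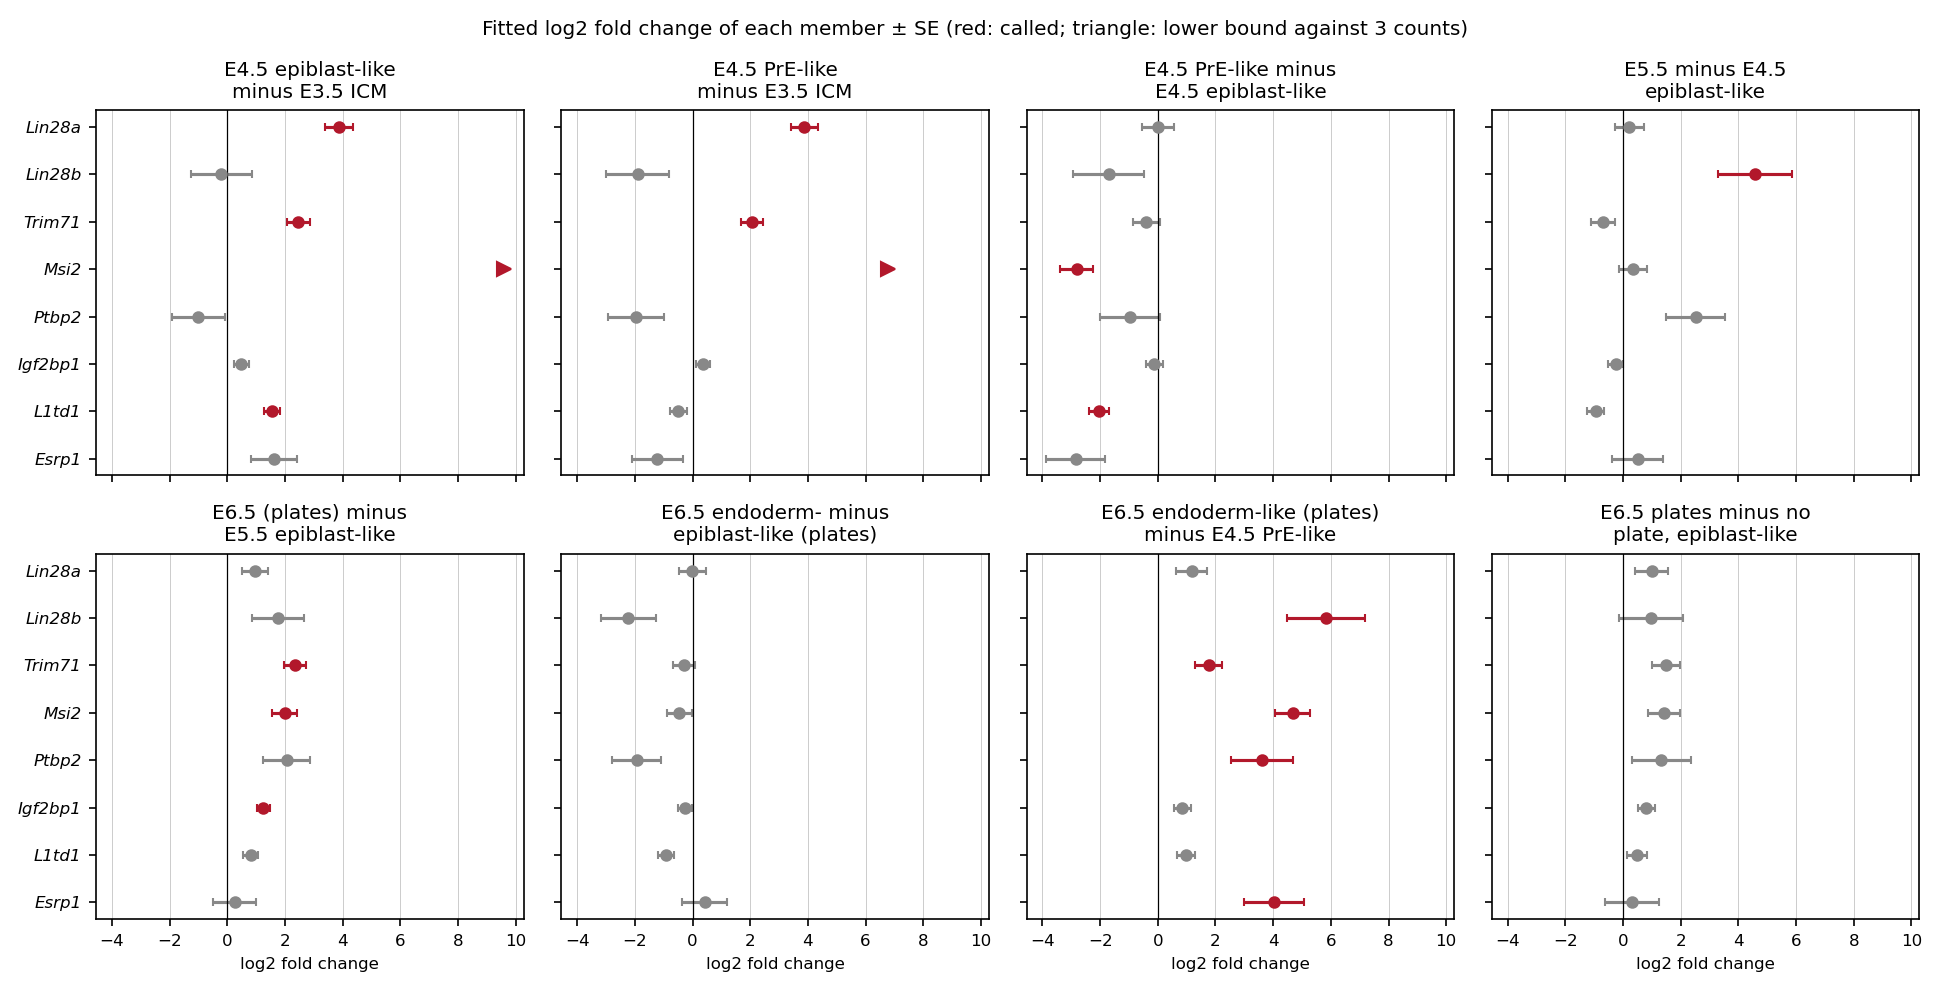
Each panel is 1 comparison, and points are fitted log2 fold changes of the 8 genes with bars of 1 SE. Red marks genes called, and a triangle a lower bound against 3 counts where a group is at 0. Trim71, Msi2 and Igf2bp1 are called in the E6.5 (plates) against E5.5 panel, and no gene is called between the E6.5 sets.

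At E6.5 the result depended on which set of embryos was set against E5.5. On plates P1 to P3, Trim71, Msi2 and Igf2bp1 were higher than at E5.5, 3 of 8 beside 5.48% of all genes called higher. The median log2 change of the 8 genes was 1.52, beside -0.14 over all genes. With the 4 epiblast-like sums that lack a plate name in their place, 0 of 8 were called, and the fitted changes were 0.87 for Trim71 (adjusted p = 0.502), 0.58 for Msi2 (adjusted p = 0.857) and 0.46 for Igf2bp1 (adjusted p = 0.630). That comparison called 163 genes of 17029 in all, against 2121 with the plates.

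Trim71 was 204.2 to 757.6 CPM with a median of 363.0 CPM in the 8 epiblast-like sums on plates, 5.12-fold above E5.5 (log2 change 2.36 ± 0.39, adjusted p = 2.92e-05). Without a plate name it was 179.6 and 104.4 CPM in embryos 1 and 2 titled E6.5, and 151.8 and 140.0 CPM in embryos 1 and 2 titled E6.75. The plates lay above and the other sums lay partly inside the E5.5 range of 42.4 to 110.2 CPM.

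Msi2 was 145.5 to 253.7 CPM on plates with a median of 169.5 CPM (log2 change 1.99 ± 0.44, adjusted p = 0.00211). The 4 sums without a plate name, in the same order, held 54.4, 65.2, 87.6 and 74.9 CPM, beside 29.1 to 67.0 CPM at E5.5. Igf2bp1, a stabilizer of fetal mRNAs, was 603.2 to 1329 CPM on plates with a median of 733.2 CPM (log2 change 1.26 ± 0.24, adjusted p = 0.000207), and 520.2, 430.9, 563.8 and 383.8 CPM without a plate name. For both genes the plate sums lay wholly above E5.5, and the other sums overlapped it.

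The remaining 5 genes did not pass both limits on plates. Ptbp2 was 103.9 to 307.1 CPM on plates (median 182.7), wholly above E5.5, and 64.0, 81.4, 98.3 and 58.6 CPM without a plate name, with a fitted change on plates of 2.06 ± 0.82 and an adjusted p of 0.0810. Lin28b was 62.8 to 260.9 CPM (median 188.2) on plates and 84.7, 49.0, 125.1 and 97.6 CPM without a plate name (log2 change on plates 1.78 ± 0.90, adjusted p = 0.184). Lin28a was 235.7 to 610.1 CPM (median 373.1) and 181.8, 207.0, 192.5 and 182.7 CPM in the same order (0.96 ± 0.44, adjusted p = 0.137). L1td1 was 245.4 to 437.6 CPM (median 337.3) on plates, above every E5.5 sum, with a change of 0.81 ± 0.27 that stayed under the limit (adjusted p = 0.0371). Esrp1 was 6.11 to 112.7 CPM on plates (median 46.0), a range that spans that of E5.5. A fit of only the E5.5 and E6.5 plate epiblast-like classes called 6 of the 8, beside 1838 of the 11253 genes it tested (938 higher).

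The 2 E6.5 sets were also compared with each other. No gene of the 8 was called between their epiblast-like sums (edgeR), where 0.429% of all genes were called in either direction. An unadjusted p under 0.05 was found for 3 of the 8, beside 2033 of the 17029 genes tested. A fit of these classes alone called 4 of the 8, beside 174 of the 11426 genes it tested. Every plate sum lay above every sum without a plate name for 5 of the 8, which were Lin28a, Trim71, Msi2, Ptbp2 and Igf2bp1. That arrangement held for 207 genes, 1.22% of all tested, and the opposite one for 292. The fitted differences of the 5 genes ran from 0.80 ± 0.30 for Igf2bp1 to 1.49 ± 0.49 for Trim71 on the log2 scale, with adjusted p-values from 0.160 to 0.720. The plate name P1 occurs at E5.5 and E6.5 as well as at E4.5, and the labels do not say whether it is the same plate. Under that name the E5.5 embryo held 69.2 CPM of Trim71 and 45.1 CPM of Msi2, and E6.5 embryos 2 and 3 held 358.3 and 486.5 CPM of Trim71 and 253.7 and 149.9 CPM of Msi2. Unless these are 1 plate, stage and plate cannot be told apart.

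The length of a gene moved with the same comparison. Over the 15216 genes with an annotated exon length, the log2 change between E5.5 and the E6.5 plates had a median of -0.44 in the shortest quartile of genes and of 0.21 in the longest, which begins at 6289 bases. Spearman's correlation of length and change across these genes, which share the same libraries, was 0.177. The exons of 6 of the 8 genes, all but Lin28a and L1td1, add up to a length in that longest quartile. The part of length in the rise of Trim71, Msi2 and Igf2bp1 was not tested.

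In the endoderm-like cells of the same E6.5 embryos on plates, none of the 8 genes was called against the epiblast-like cells (edgeR). Of all genes, 12.4% were called there in either direction. An unadjusted p under 0.05 was found for 3 of the 8, beside 5134 of the 17029 genes tested. Lin28b, Ptbp2 and L1td1 were lower in the endoderm-like sum of 7 of 7 embryos, and each of the others in 4 to 6 of 7. The share of all genes that were lower in 7 of 7 was not counted. Lin28b was 0 to 187.4 CPM in the endoderm-like sums with a median of 8.38 CPM, and the fitted difference was -2.22 ± 0.96 (adjusted p = 0.106). The highest of these sums was that of embryo 4, at 187.4 CPM beside 260.9 CPM in its epiblast-like cells. In the embryos without a plate name titled E6.75, Lin28b was 21.1 and 14.2 CPM in the endoderm-like beside 125.1 and 97.6 CPM in the epiblast-like cells of embryos 1 and 2.

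Ptbp2 was 4.37 to 106.4 CPM in the endoderm-like sums on plates with a median of 39.3 CPM (fitted difference -1.94 ± 0.86, adjusted p = 0.115). L1td1 was 56.6 to 305.9 CPM there with a median of 179.5 CPM, and its difference of -0.92 ± 0.28 had an adjusted p of 0.0260 but stayed under the limit of 1. L1td1 was thus lower in the endoderm-like cells of every embryo with both lineages: 5 of 5 at E4.5, 7 of 7 on the E6.5 plates and 2 of 2 without a plate name. Lin28a (151.1 to 676.0 CPM, median 345.4), Trim71 (107.4 to 901.1, median 190.7), Msi2 (22.7 to 227.4, median 149.1), Igf2bp1 (214.4 to 996.1, median 677.3) and Esrp1 (10.9 to 163.2, median 65.7) overlapped between the lineages, and their direction differed from embryo to embryo. With the embryo as a replicate block 0 of 8 were called as well, with -4.13 for Lin28b (adjusted p = 0.142).

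**Figure D4:**
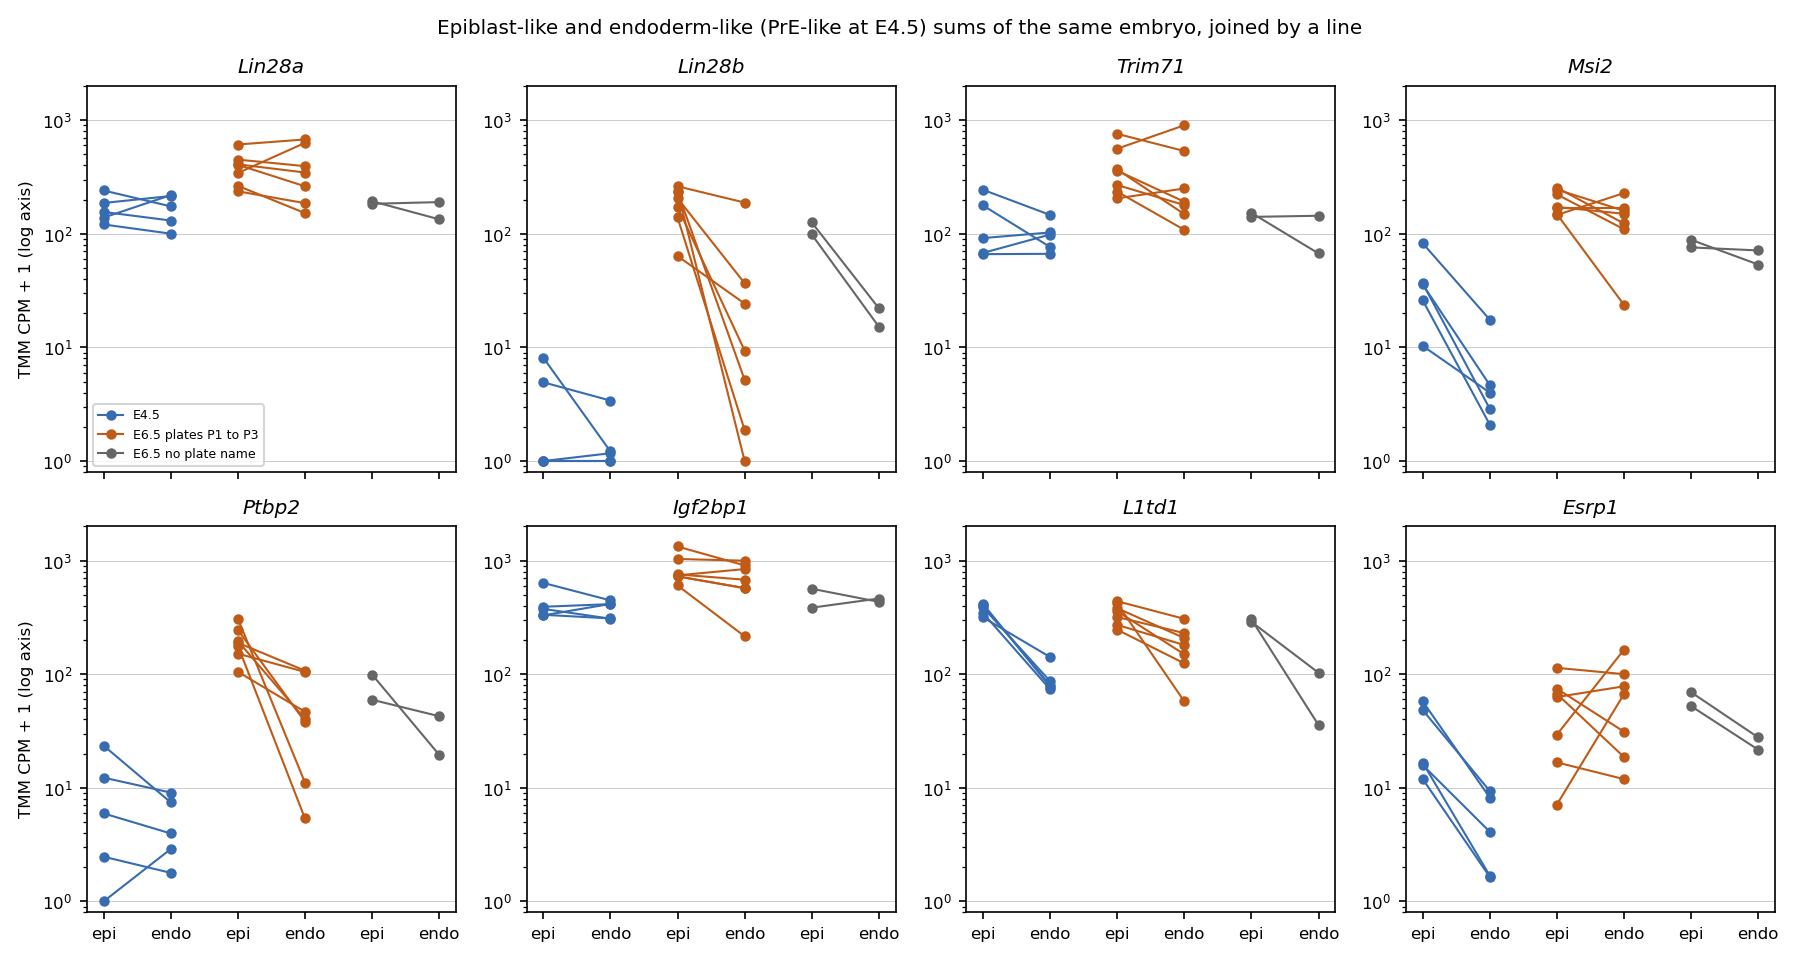
Lines join the epiblast-like and the endoderm-like (at E4.5, PrE-like) sum of the same embryo, as TMM CPM plus 1 on a log axis, in blue for E4.5, orange for the E6.5 plates and grey for E6.5 embryos without a plate name. L1td1 falls along every line, Msi2 and Esrp1 along all 5 lines at E4.5, and Lin28b and Ptbp2 along all 7 lines of the E6.5 plates.

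The endoderm itself differed between stages. Lin28b, Trim71, Msi2, Ptbp2 and Esrp1 were higher in the E6.5 endoderm-like cells on plates than in the E4.5 PrE-like cells, 5 of 8 beside 6.28% of all genes called higher. For Msi2 and Esrp1 the ranges of these classes did not overlap, and the share of all genes with such ranges was not counted. Msi2 was at most 16.6 CPM at E4.5 and at least 22.7 CPM at E6.5 (log2 change 4.68 ± 0.61, adjusted p = 8.39e-07). The 2 E6.75-titled sums without a plate name held 52.7 and 70.4 CPM, and Msi2 was called with them too (3.53, adjusted p = 0.00186). Esrp1 changed by 4.03 ± 1.05 (adjusted p = 0.00619), from 0.64 to 8.38 CPM at E4.5 to 10.9 CPM or more. The 12 trophoblast markers moved with this comparison: they summed to 133 to 243 CPM in the E4.5 PrE-like sums, to 462 to 2178 CPM in the E6.5 endoderm-like sums on plates and to 969 to 1086 CPM in those without a plate name. Of them Cdx2, which defines the trophoblast, was at 0 in every PrE-like sum and at most 2.95 CPM on the plates, and 16.2 and 17.8 CPM in the 2 sums without a plate name. Tfap2c, Krt7 and Hand1 were also at 0 in every PrE-like sum. They were among 7 of the 12 markers at 0 in the 2 E6.5 sums without a plate name. On the plates all 12 were detected. The part of these markers in the result was not tested.

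Lin28b (5.83 ± 1.36, adjusted p = 0.00225), Ptbp2 (3.61 ± 1.08, adjusted p = 0.0170) and Trim71 (1.76 ± 0.46, adjusted p = 0.00645) were called although single embryos overlapped. The 7 Lin28b sums on plates had a median of 8.38 CPM and a highest of 187.4 CPM, and these embryos were not left out in turn. In a fit of the compared classes alone, the Lin28b change was 5.95 and was no longer called. Without a plate name, the fitted changes were 4.76 for Lin28b (adjusted p = 0.105), 2.89 for Ptbp2 (adjusted p = 0.376), 2.55 for Esrp1 (adjusted p = 0.434) and 0.11 for Trim71 (adjusted p = 1), so that 1 of the 5 calls was made there. That alternative was chosen after the data were seen. Lin28b in those 2 sums, at least 14.2 CPM, still lay above the highest PrE-like sum of 2.41 CPM. L1td1 (0.98 ± 0.32, adjusted p = 0.0297) stayed under the limit, and without E4.5 embryo 1 it was called at 1.19 (adjusted p = 0.0194).

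Whether the gap between lineages changed with stage was tested directly. For Msi2 it did, and the gap was smaller at E6.5. The signed endoderm minus epiblast difference rose from E4.5 to E6.5 by 2.36 ± 0.70 on the log2 scale (edgeR adjusted p = 0.0440). This was 1 of 8 genes, beside 1.18% of all genes called in this direction. The Msi2 lineage difference was -2.81 at E4.5 and -0.46 at E6.5. The call is a narrow one, since it was lost without E4.5 embryo 1, 2, 3 or 4, with changes of 2.22, 2.42, 2.16 and 2.27, in single cells alone (1.45) and with the E6.5 sums without a plate name (2.62, adjusted p = 0.347). Esrp1 (3.27 ± 1.26, adjusted p = 0.115) and L1td1 (1.12 ± 0.44, adjusted p = 0.124) had the same sign without passing.

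The last small classes have 1 sum each and were not tested. The 5 endoderm-like cells of E5.5 embryo 7 had no Lin28b count in 6668780 counts, where the epiblast-like cells of that embryo stood at 45.1 CPM. The same sum held 32.0 CPM of L1td1 beside 146.1 CPM, 97.1 CPM of Lin28a beside 174.9 CPM and 24.7 CPM of Msi2 beside 52.1 CPM. All 4 values lay below the range of the 8 epiblast-like sums, and those of Trim71, Ptbp2, Igf2bp1 and Esrp1 lay inside it. How many of all genes lay below that range was not counted.

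The 24 primitive streak-like cells, from embryo 2 without a plate name titled E6.5, carried the streak genes T (119.1 CPM) and Mesp1 (360.6 CPM). L1td1 stood at 92.0 CPM there, beside 172.5 CPM in the epiblast-like cells of the same embryo and 172.5 to 302.4 CPM over the 4 epiblast-like sums that lack a plate name. Msi2 was 44.5 beside 65.2 CPM, Lin28a 180.6 beside 207.0 CPM and Trim71 103.0 beside 104.4 CPM, and these values too lay below the 4 sums, those of Lin28a and Trim71 by less than 2 CPM. How many of all genes lay below the 4 sums was not counted. Lin28b (50.7 beside 49.0 CPM), Ptbp2 (74.6 beside 81.4), Igf2bp1 (500.7 beside 430.9) and Esrp1 (30.6 beside 11.7) lay inside the range of the 4 sums, and Esrp1, at 2.61 times the epiblast-like level of that embryo, was the gene with the largest ratio.

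Cell by cell, the genes differed in how widely they were detected. Igf2bp1 had a count in at least 99.7% of cells thinned to 200000 counts, as the mean over embryos, in each of the 10 classes. Lin28b was the most restricted: 8.99% ± 9.74 at E3.5, 7.86% ± 11.4 and 3.30% ± 4.56 in the epiblast and PrE at E4.5, 66.5% ± 12.7 at E5.5, and 85.3% ± 15.9 and 30.5% ± 22.6 in the epiblast-like and endoderm-like cells on the E6.5 plates. In the E6.5 epiblast without a plate name the share was 99.0% ± 1.92 although the level was no higher than on plates, so a share and a level do not rank these sets alike. Of the cells, 13 had fewer counts than the thinning needs and were left out.

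**Figure D5:**
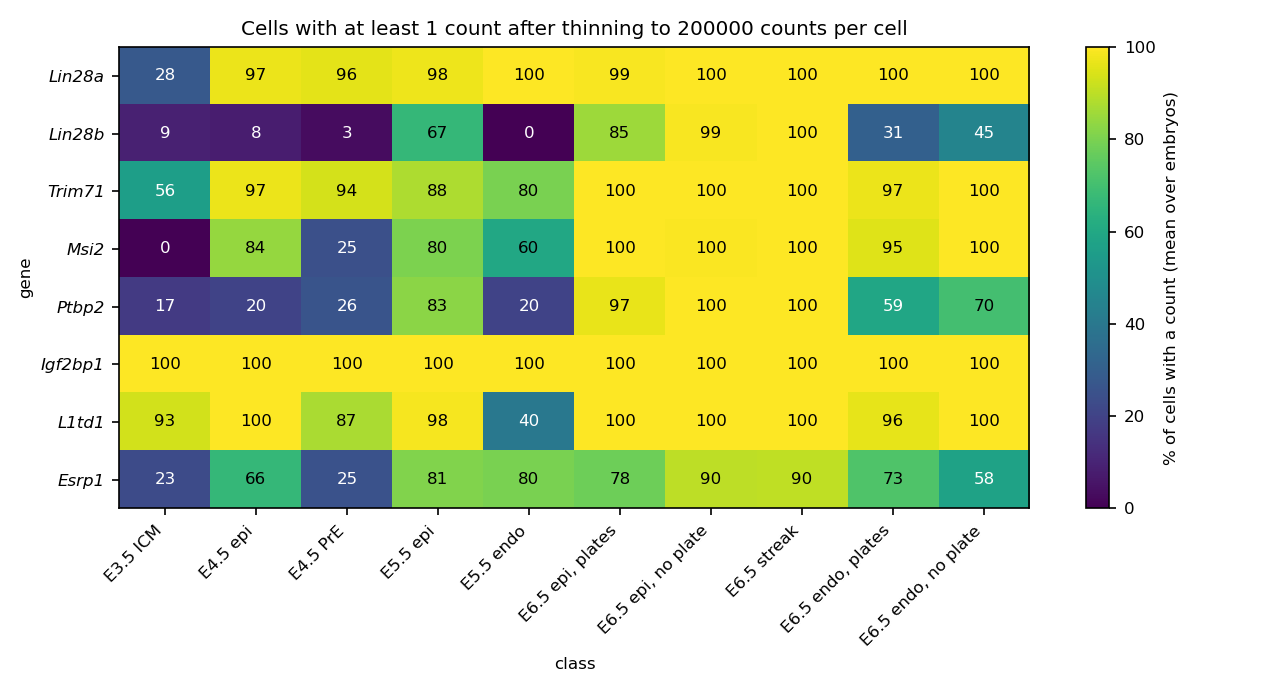
Colours and numbers give the share of cells with at least 1 count of a gene after thinning each cell to 200000 counts, in percent, as the mean over the embryos of a class. Igf2bp1 is found in nearly all cells of every class, Msi2 in 0% of E3.5 cells, and Lin28b in 8.99% of E3.5 cells and 66.5% of E5.5 cells.

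Levels can be compared between genes per kilobase of exon. In the E3.5 ICM L1td1 (median 40.8 CPM per kilobase) and Igf2bp1 (28.0) had higher medians than the other 6 genes, at 0 to 2.62 CPM per kilobase, and the ranges of L1td1 and Igf2bp1 overlapped. In the E4.5 epiblast L1td1 (122) was first, with a lowest embryo of 99.4, above the highest embryo of Lin28a (59.96) and of Igf2bp1 (65.5), which did not differ beyond their spread at medians of 38.7 each. At E5.5 the order was L1td1 (63.7), Lin28a (47.4), Igf2bp1 (35.7) and Trim71 (8.33), followed by Esrp1, Lin28b, Ptbp2 and Msi2 between 7.03 and 4.503. The ranges of the first 2 overlapped, as did those of Lin28a and Igf2bp1 and those of the last 5. On the E6.5 plates Lin28a (93.4), L1td1 (106) and Igf2bp1 (75.7) overlapped in the epiblast, and Trim71 (38.9) had the lower median and overlapped all of them. The Trim71 values divide by the whole annotated gene, which is longer than the model counted.

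Over the 51 sums, the level of 1 gene moved most like that of another in these pairs, by Pearson's r of log2 levels: Lin28a and Msi2 at 0.84, Trim71 and Msi2 at 0.83, Trim71 and Igf2bp1 at 0.81, and Lin28b and Ptbp2 at 0.80. L1td1 was the least alike, with r of at most 0.51 to any other of the 8. Among all genes tested, the closest to Lin28a were Peg3 (0.92) and Ldha (0.91), to Lin28b Gli3 (0.88), to Msi2 Sox4 (0.92) and Igfbp2 (0.90), to Trim71 Gm16477 (0.85) and Zic2 (0.84), to L1td1 Ifitm2 (0.77) and to Esrp1 Pvrl3 (0.76). Closest to Ptbp2 was Cct2 (0.81), and closest to Igf2bp1 was Trim71 itself. The sums share stage, plate and lineage, so these values describe the whole series and not a relation within a class.

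The relatives of the 8 genes were read alongside them. Ptbp1, the general splicing repressor, was at 249.0 CPM at E3.5 (median), 396.8 in the E4.5 epiblast, 431.2 at E5.5 and 381.4 on the E6.5 plates, and passed no comparison. Ptbp2 passed none of the epiblast steps either, with medians of 3.66, 4.95, 46.1 and 182.7 CPM in the same order and 72.7 CPM in the E6.5 sums without a plate name. Msi1 was at most 4.004 CPM in any sum up to E4.5 and 8.85 to 27.5 CPM in the epiblast-like sums of the E6.5 plates. Igf2bp3 rose from E5.5 to the E6.5 plates by 1.56 ± 0.30 (adjusted p = 0.000261), from a median of 93.7 to one of 265.1 CPM, as Igf2bp1 did, whereas Igf2bp2 did not pass (75.3 and 113.2 CPM). Trim2, another relative of Trim71, was at 0 in all 10 E3.5 sums and had 18.4 to 146.2 CPM in the E4.5 epiblast. Esrp2 stayed between 0 and 42.1 CPM, and Trim3 and Trim32 passed no comparison. Of the 8 relatives tested, 1 was called higher and 0 lower in the E4.5 epiblast against the ICM, with a median log2 change of 0.75, beside 12.2% higher over all genes.

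The let-7 and microRNA processing list held 22 rows tested. In the E4.5 epiblast against the ICM 4 were called higher and 1 lower (18.2% and 4.55%, beside 12.2% and 5.57% of all genes). Among them were Drosha, which cuts microRNA precursors in the nucleus (2.07 ± 0.61, adjusted p = 0.0120), Eif2c1, an Argonaute (2.69 ± 0.79, adjusted p = 0.0116), and Tnrc6b, a silencing partner of Argonaute (2.22 ± 0.56, adjusted p = 0.00327). In the PrE 2 were higher and 0 lower (9.09% and 0%, beside 12.5% and 4.33% of all genes). Between the E4.5 lineages 0 were called, where 2.33% of all genes were higher and 1.44% lower in the PrE. From E5.5 to the E6.5 plates 4 were higher and 1 lower (18.2% and 4.55%, beside 5.48% and 6.98% of all genes), including Zcchc11, the uridylating enzyme that Lin28a recruits to let-7 precursors, from 26.3 to 74.3 CPM (1.70 ± 0.55, adjusted p = 0.0332). Its median log2 change was 0.39 in that comparison and 0.21 in the E4.5 epiblast, beside -0.14 and 0.00 over all genes. In the E6.5 endoderm-like against epiblast-like cells 0 were higher and 1 lower, beside 4.88% and 7.55% of all genes. In the same endoderm-like cells against the E4.5 PrE 3 were higher and 2 lower, beside 6.28% and 11.1% of all genes.

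Of 25 reported let-7 targets tested, 7 were higher and 3 lower in the E4.5 epiblast than in the ICM (median 0.46), and 5 were higher and 6 lower in the PrE (median -0.07). Over all genes 12.2% were higher and 5.57% lower in the epiblast (median 0.00), and 12.5% and 4.33% in the PrE (median 0.13). Hmga2, a chromatin protein repressed by let-7, was lower in both: 266.3 CPM at E3.5 and 61.6 CPM in the E4.5 epiblast (-3.08 ± 0.45, adjusted p = 1.24e-06) at the median. Ccnd1, the cyclin of early G1, went from 8.02 to 140.8 CPM in the epiblast (4.34 ± 0.48, adjusted p = 1.74e-09) and was 4.81 CPM in the PrE, lower by 4.05 on the log2 scale than in the epiblast. The PrE was lower than the epiblast for 3 of the 25 and higher for 0.

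From E5.5 to the E6.5 plates 5 of the 25 targets were higher and 3 lower (median 0.60), beside 5.48% and 6.98% of all genes (median -0.14). Hmga2 went from 32.1 to 248.0 CPM (3.20 ± 0.38, adjusted p = 1.93e-08), Mycn from 46.3 to 229.5 CPM (2.39 ± 0.47, adjusted p = 0.000433) and Nras from 192.4 to 846.0 CPM (2.19 ± 0.23, adjusted p = 4.76e-10), while Hmga1 and Cdc34 were lower. Nras was also higher on the plates than in the sums without a plate name (1.56 ± 0.29, adjusted p = 0.00125). In the E6.5 endoderm-like cells against the E4.5 PrE 8 were higher and 0 lower (median 1.17), beside 6.28% and 11.1% of all genes (median -0.07), with Ccnd1 and Hmga1 among the 8. The list holds targets by report, not by the seed search above, and 2 of them, Igf2bp2 and Igf2bp3, are relatives of Igf2bp1.

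Among 47 other splicing regulators tested, 5 were higher and 2 lower in the E4.5 epiblast than at E3.5, and 10 were higher and 1 lower in the PrE. These are 10.6% and 4.26% in the epiblast, beside 12.2% and 5.57% of all genes, and 21.3% and 2.13% in the PrE, beside 12.5% and 4.33%. The list's median log2 change was 0.47 and 0.36, beside 0.00 and 0.13. Rbm47, an RNA-binding protein of endoderm-derived epithelia, followed the endoderm: 276.1 CPM in the PrE beside 20.3 CPM in the epiblast at E4.5 (3.08 ± 0.53, adjusted p = 0.000162), and 284.5 beside 48.7 CPM on the E6.5 plates (2.53 ± 0.42, adjusted p = 0.000154). It was the 1 splicing regulator called higher in the endoderm at each stage, opposite in direction to Msi2 and L1td1 at E4.5. Mbnl1, which controls splicing in differentiated cells, was higher in the PrE than at E3.5 (a median of 15.5 CPM beside 0, adjusted p = 1.87e-06, with 12 counts in all at E3.5). From E5.5 to the E6.5 plates 4 were higher and 3 lower (8.51% and 6.38%, beside 5.48% and 6.98% of all genes), with Qk, the quaking protein, among those that rose (1.68 ± 0.34, adjusted p = 0.000547).

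Of 30 other mRNA-binding regulators, 1 was higher and 1 lower in the E4.5 epiblast than at E3.5, 3 and 0 in the PrE, and 2 and 5 on the E6.5 plates against E5.5. The share called higher in the epiblast at E4.5 was 3.33%, beside 12.2% of all genes, and on the plates 6.67% were higher and 16.7% lower, beside 5.48% and 6.98%. Dnd1, a germ-cell protein that shields mRNAs from microRNAs, fell on the plates by 3.87 on the log2 scale (SE 1.14, adjusted p = 0.0200). Zfp36l1, which speeds the decay of AU-rich mRNAs, was lower at E5.5 than in the E4.5 epiblast (46.5 beside 125.3 CPM, -1.92 ± 0.37, adjusted p = 0.000667). In the E6.5 comparisons that rest on plates P1 to P3, stage and plate cannot be told apart for these lists either.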

How the data were processed

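The study sequenced full-length cDNA of 721 picked cells, labelled single or double, without molecular identifiers. Per the submitters' processing notes, reads were trimmed with Trim Galore 0.4.3 and aligned to GRCm38 with HISAT2 2.0.5. The deposited table holds raw counts for 24483 gene rows on 19 chromosomes, which the authors quantified in SeqMonk. Cells held 66896 to 3792936 counts (median 692863).

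Cells were classed by stage and by consensus clustering with marker lists. The 8 genes, their relatives and the RNA-binding and let-7 lists were left out of the clustering. No doublet caller was run, and cells labelled double were kept. They were 9 of 99 cells at E3.5, and 7 of 27 epiblast-like and 31 of 78 PrE-like cells at E4.5. In the epiblast-like classes they were 66 of 259 cells at E5.5 and 3 of 92 on the E6.5 plates. Their part in the shares of cells with a count was not tested. Counts were summed per embryo and class (at least 3 cells), which left 17 cells in no sum and gave 51 sums from 35 embryos. All sums entered 1 edgeR 4.0.16 quasi-likelihood fit (R 4.3.3, TMM, filterByExpr), with Benjamini-Hochberg adjustment over 17029 genes. SE is the log2 fold change over the square root of F. Calls required an adjusted p no larger than 0.05 and an absolute log2 fold change above 1 (above 2 between the E4.5 lineages). DESeq2 1.42.0 was an alternative. The labels do not say that the embryos came from separate litters. Lineages of 1 embryo are the same animal; the deviations of same-embryo sums correlated at 0.0229 to 0.124 at E4.5 and 0.0126 to 0.0807 at E6.5. Fits were tested on simulated data.

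The 8 genes and the lists were chosen with earlier results of these data known. All 8 genes and 8 of their relatives are named, and of each list only genes among the 3 called with the largest absolute log2 changes in each direction. Most of those with a class at or near 0 were left unnamed after their values were seen. Ptbp3 was not analysed here. Some genes of the lists are not reported here by name.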

Additional observations from a re-analysis of the deposited data

Results flagged for a closer look

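In 56 groups of 4 to 10 sums of 1 gene, 6 held a sum that stood apart from the rest of its group, where chance gives about 1 in 20. In the E4.5 PrE, embryo 4 was high for Lin28b at 2.41 CPM and embryo 1 was high for L1td1 at 140.4 CPM. In the E4.5 epiblast, embryo 5 was high for Igf2bp1 at 634.6 CPM. In the E6.5 endoderm-like cells on plates, embryo 9 of plate P3 was low for both Msi2 (22.7 CPM) and Igf2bp1 (214.4 CPM). In the E5.5 epiblast, embryo 7 was low for L1td1 at 146.1 CPM.

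The lineage difference of Msi2 differed between stages in the test of that difference, by 2.36 on the log2 scale (E6.5 minus E4.5, edgeR adjusted p = 0.0440).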

How the results depend on the processing

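The number of the 8 genes called was compared over 23 other settings. It stayed within 1.5 times for both E4.5 lineages against E3.5 in each setting that was run for them. Of 1053 values for single genes, 988 kept their direction and side of the threshold, 34 came to pass it, 31 no longer passed it and 0 reversed.

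Between the E4.5 lineages (2 called), the test against the log2 limit gave 0, single cells alone 1, and leaving out 1 E4.5 embryo 1 to 2, with 1 without embryo 2, 3 or 4. For E5.5 against the E4.5 epiblast (1 called), DESeq2, RLE normalization, no filter, the adjusted p alone, single cells and sums of at least 5 cells each gave 2, the compared classes alone 3, the test against the log2 limit 0, and leaving out 1 embryo 0 to 1, with 0 without embryo 1, 3 or 5. For the E6.5 plates against E5.5 (3 called), the log2-limit test gave 1, the compared classes alone 6 and the sums without a plate name 0. For E6.5 endoderm against epiblast (0 called), the adjusted p alone and sums of at least 1 cell each gave 1. For E6.5 endoderm against E4.5 PrE (5 called), the sums without a plate name gave 1, and for the 2 E6.5 sets (0 called) the compared classes alone gave 4. For the change in lineage difference (1 called), DESeq2 and sums of at least 5 cells gave 2, and the log2-limit test, single cells, sums of at least 1 cell and the sums without a plate name gave 0. Leaving out 1 E4.5 embryo gave 0 to 1, with 0 without embryo 1, 2, 3 or 4. The sums without a plate name were added for those 2 endoderm comparisons after the data were seen. The cause of these shifts was not tested.

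With the embryo as a replicate block, which pairs the lineages of 1 animal, 3 of the 8 genes were called at E4.5 and 0 at E6.5. Over all genes the block gave 1017 calls in place of 643 at E4.5 and 90 in place of 2116 at E6.5.

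Over all genes, DESeq2 gave 1242 calls in place of 643 between the E4.5 lineages, 240 in place of 73 between the E6.5 sets and 1240 in place of 754 for the change in lineage difference. The sums without a plate name gave 163 in place of 2121, 51 in place of 2116, 172 in place of 2955 and 24 in place of 754. DESeq2 called 757 of 1211 genes higher at E5.5 than at E4.5, against 383 of 839, and 1533 of 2972 higher in the E4.5 epiblast than at E3.5, against 2085 of 3033, and 1559 of 2582 higher in the PrE than at E3.5, against 2124 of 2862. RLE normalization moved the median of all genes from 0.28 to 0.15 for E5.5 against E4.5 and from -0.39 to -0.28 for the change in lineage difference. Sums of Lin28b and Ptbp2 up to E4.5 are at or near 0, and their intervals are wide. Fits of the compared classes alone gave 1380 in place of 3033 for the E4.5 epiblast against E3.5 (556 higher in place of 2085), 1587 in place of 2862 for the PrE (818 and 2124 higher), 2148 in place of 839 for E5.5 against E4.5 (1346 and 383 higher), 166 in place of 2116 between the E6.5 lineages, 726 in place of 2955 for the endoderm and 174 in place of 73 between the E6.5 sets. Classes by marker score gave 1049 (590 higher) in place of 2116 (831 higher) between the E6.5 lineages and 404 in place of 754 for the change in lineage difference. The log2-limit test gave fewer calls in all 9 comparisons: 1965 in place of 3033, 1816 in place of 2862, 104 in place of 643, 465 in place of 839, 857 in place of 2121, 1053 in place of 2116, 1683 in place of 2955, 4 in place of 73 and 468 in place of 754. Sums of at least 5 cells gave 1902 in place of 3033 and 1139 in place of 2116, sums of at least 1 cell 46 in place of 73, and cells titled E6.75 left out 16 in place of 73. Leaving out 1 E4.5 embryo gave 272 to 373 in place of 643, 316 to 376 in place of 754 and, without embryo 4, 501 in place of 839, and leaving out 1 embryo without a plate name 43 to 48 in place of 73.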
